A study of Rattus norvegicus with 8 samples.

Results

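Whole blood of the DOCA–HS model was compared with whole blood of the AngII model after CMG administration, across all genes, in the 4 libraries that were collected after CMG out of the 8 libraries of the series. CMG is Chios mastic gum, the resin of Pistacia lentiscus var. Chia. All rats were male wild-type Wistar rats of 12 to 14 weeks of age, and all 4 libraries came from rats that had received CMG at 220 mg/kg daily by gavage for 4 weeks. The 2 AngII libraries came from rats infused with angiotensin II at 0.4 mg/kg/day from an osmotic minipump, sampled at week 5 of the model. The minipump was stated to last 4 weeks. The 2 DOCA–HS libraries came from rats given deoxycorticosterone acetate (DOCA) at 100 mg/kg once weekly under the skin, with 0.9% NaCl and 1% KCl in the drinking water, sampled at week 7. The model, the length of the model and the cohort of rats changed together, so they cannot be told apart. The libraries without CMG are those taken before it, at earlier weeks, and no untreated library of the same week was analysed here, so the part of CMG in a difference between the models cannot be told apart from that of time. The comparison addressed which blood transcripts differed between hypertension driven by angiotensin II and hypertension driven by a mineralocorticoid with salt, once both had been treated.

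Angiotensin II constricts vessels and stimulates aldosterone release through its type 1 receptor, and its infusion gives a hypertension with high activity of the angiotensin pathway. DOCA activates the mineralocorticoid receptor, which retains sodium and volume and lowers renin, so that the hypertension depends on salt. Whole blood RNA is a mixture: red cells and reticulocytes hold most of the RNA as hemoglobin transcripts, platelets hold transcripts of their granule and adhesion proteins, and the leukocytes hold most of the other genes. A difference in bulk blood RNA can come from fewer cells of a type or from less RNA per cell, and these cannot be told apart here.

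The libraries differed in depth, and 2 of them stood apart. The total counts were 6804001 and 9940689 in the AngII libraries (replicates 1 and 2) and 9046481 and 4149104 in the DOCA–HS libraries. Hemoglobin genes took 67.1% to 68.5% of the counts in 3 libraries and 84.3% in DOCA–HS replicate 2. That library held 651764 counts outside hemoglobin against 2195735 to 3127610 in the others, and 63.6% of the genes tested had fewer than 10 counts in it. Of 2632 tested genes with at least 100 counts in DOCA–HS replicate 1, 25 had no count in DOCA–HS replicate 2. The share of genes that differed more than 2-fold between the replicates was 7.78% for AngII and 37.7% for DOCA–HS. AngII replicate 2 stood apart in platelet transcripts, as given with the blood cell genes. Blood was taken by cardiac puncture. Of the 34 erythroid genes listed 30 could be tested, and 0 of 12 heart muscle, 2 of 12 hepatocyte and 5 of 13 endothelial genes.

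**Figure D1:**
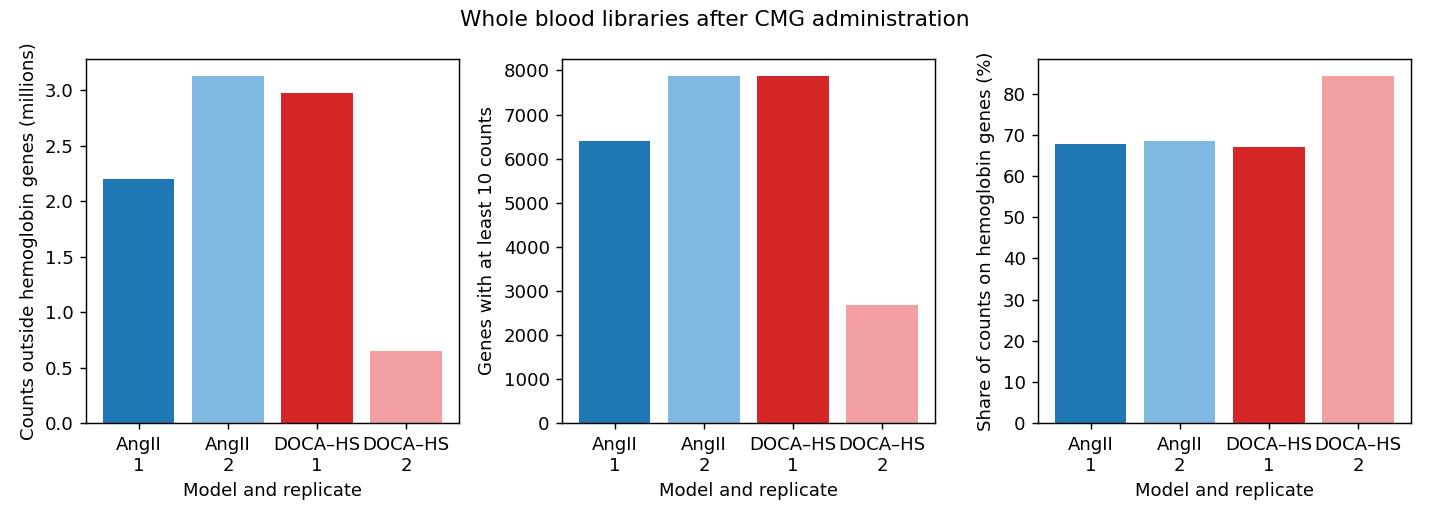
Bars give, for each of the 4 libraries after CMG, the counts outside hemoglobin genes (left), the number of genes with at least 10 counts (middle) and the percentage of counts on hemoglobin genes (right). DOCA–HS replicate 2 had 651764 counts outside hemoglobin and 2686 genes with at least 10 counts, against 6405 to 7878 such genes in the other libraries.

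After CMG, 49 of 7364 genes tested met the criterion of the study, a log2 fold change beyond 1.5 with a nominal p-value (not adjusted for the number of genes) of at most 0.05. These are 0.665% of the genes tested. Of these, 42 were higher in the DOCA–HS model, which is 0.57% of the genes tested, and 7 were lower, which is 0.0951%. With the quasi-likelihood test of edgeR, 0 genes passed an adjusted p-value of 0.05 and the lowest adjusted p-value was 0.999. A nominal p-value of at most 0.05 was reached by 59 genes (0.801%), 50 of them higher (0.679%) and 9 lower (0.122%). DESeq2 and limma-voom also gave 0 genes at an adjusted p-value under 0.05. With library totals in place of TMM, 2 genes were higher and 5 lower by the criterion, and with totals outside hemoglobin 47 were higher and 0 lower. The genes described next therefore passed only the nominal criterion, and their values are given by library. Expression is given as normalised CPM (counts relative to library size, scaled with the TMM factor), and 3 counts were worth 0.430 and 0.194 normalised CPM in the AngII libraries and 0.200 and 1.91 in the DOCA–HS libraries.

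Among the 42 genes that were higher in the DOCA–HS model, 8 stayed beyond a log2 fold change of 1.5 with each of the 4 libraries left out in turn. The 8 genes were Serpinb6a, Bglap, Lyve1, Mcpt1l1, Rhbdl3, Hells, Dnah1 and Ramp3. All 8 had their lowest value in AngII replicate 2 and their highest value in DOCA–HS replicate 2, the libraries that stood apart. The part of these libraries in the values was not tested beyond leaving each out.

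Serpinb6a, an intracellular inhibitor of serine proteases, had the smallest p-value of all genes. It stood at 2.01 and 0.842 normalised CPM in the AngII libraries and at 7.30 and 8.90 in the DOCA–HS libraries. The DOCA–HS values lay close together and well above both AngII values, but rest on 109 and 14 counts, against 14 and 13 in the AngII libraries. The log2 fold change was 2.55 ± 0.61 (SE), with a nominal p-value of 0.0021 in edgeR's test, and between 1.98 and 3.23 with a library left out.

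Ramp3, which escorts the calcitonin receptor-like receptor to the cell surface as part of an adrenomedullin receptor, was the most abundant of the 8. It stood at 11.2 and 1.23 normalised CPM in the AngII libraries and at 17.1 and 57.2 in the DOCA–HS libraries. The groups did not overlap, but AngII replicate 1 lay nearer to DOCA–HS replicate 1 than to AngII replicate 2. The log2 fold change of 2.58 ± 1.00 was 1.57 without DOCA–HS replicate 2.

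Lyve1, the hyaluronan receptor of lymphatic endothelium that some macrophages also carry, stood at 2.15 and 0.842 normalised CPM in the AngII libraries and at 4.62 and 12.7 in the DOCA–HS libraries. Its log2 fold change was 2.47 ± 0.72. Mcpt1l1, a gene of the mast cell protease family, stood at 1.29 and 0.0648 against 3.68 and 10.2 normalised CPM, with a log2 fold change of 3.47 ± 1.03. Reads of this family can be split among near copies, so the value of Mcpt1l1 is uncertain, and of the other 15 genes of the eosinophil, basophil and mast cell list only Alox15 had enough counts to be tested.

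Mcpt1l1 had 9 and 1 counts in the AngII libraries and 55 and 16 in the DOCA–HS libraries, and the remaining genes of the 8 also had few counts. Bglap, which encodes the bone matrix protein osteocalcin, had 4 and 2 counts in the AngII libraries and 27 and 29 in the DOCA–HS libraries, which are 0.574 and 0.130 against 1.81 and 18.4 normalised CPM. The DOCA–HS replicates thus stood far apart, and the log2 fold change of 4.82 was 2.64 without DOCA–HS replicate 2. Scaled for library size, the ratio of its summed counts was 12.7, with a 95% counting interval of 5.47 to 36.0. Hells, a chromatin remodelling helicase, had 3 and 4 counts against 14 and 20, a ratio of 6.59 (2.88 to 17.6). The DOCA–HS values of Hells were 0.937 and 12.7 normalised CPM, and its log2 fold change of 3.98 was 1.55 without DOCA–HS replicate 2. Dnah1, a heavy chain of axonemal dynein, had 5 and 4 counts against 27 and 7, a ratio of 5.13 (2.41 to 12.2). Rhbdl3, a rhomboid family member, had 12 and 5 counts against 67 and 10. The intervals cover counting error only and not the difference between rats.

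The other 34 genes fell to 1.5 or below, or could no longer be tested, with 1 of the libraries left out. In 39 of the 42 genes DOCA–HS replicate 2 was the highest of the 4 libraries, and in 3 DOCA–HS replicate 1 was. In 37 of the 42 genes AngII replicate 2 was the lowest, and in 5 AngII replicate 1 was. Over all genes tested, DOCA–HS replicate 2 was the highest in 33.6% and AngII replicate 2 the lowest in 19.5%. The 42 were selected for higher DOCA–HS values, which largely fixes the group of the highest and lowest library. These shares are therefore not a baseline for them. The median log2 fold change of the 42 genes was 2.27 with all libraries and 1.30 without DOCA–HS replicate 2. Without that library 17 of the 42 stayed beyond 1.5, without AngII replicate 2 29 did, without DOCA–HS replicate 1 37 did and without AngII replicate 1 41 did. With library totals in place of TMM, all 42 stayed above 0 and 22 stayed beyond 1.5.

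Atp2b1, the plasma membrane calcium pump whose locus is linked to blood pressure, shows this dependence. It stood at 11.6 and 7.64 normalised CPM in the AngII libraries, at 17.2 in DOCA–HS replicate 1 and at 133.5 in DOCA–HS replicate 2. The log2 fold change was 2.95 ± 0.94 with all libraries and 0.89 without DOCA–HS replicate 2. Cd99, a leukocyte surface glycoprotein, had 3.73 and 1.75 against 4.69 and 38.1 normalised CPM, and its log2 fold change went from 2.91 to 0.88 in the same way.

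Rplp2 and Cavin2 did not follow this pattern. Rplp2, an acidic protein of the ribosomal stalk, stood at 2.15 and 1.04 normalised CPM in the AngII libraries and at 13.4 and 3.81 in the DOCA–HS libraries, so that DOCA–HS replicate 1 was the highest. Its log2 fold change was 2.61 ± 0.70, 3.20 without DOCA–HS replicate 2 and 1.33 without DOCA–HS replicate 1. Reads of ribosomal protein genes can be shared with pseudogenes. Cavin2, a coat protein of caveolae, had 3 counts in each AngII library and 31 and 6 in the DOCA–HS libraries, a ratio of 8.37 (3.50 to 24.3). Its log2 fold change lay between 2.60 and 3.73 without AngII replicate 1, AngII replicate 2 or DOCA–HS replicate 2, and without DOCA–HS replicate 1 it had too few counts to be tested.

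**Figure D2:**
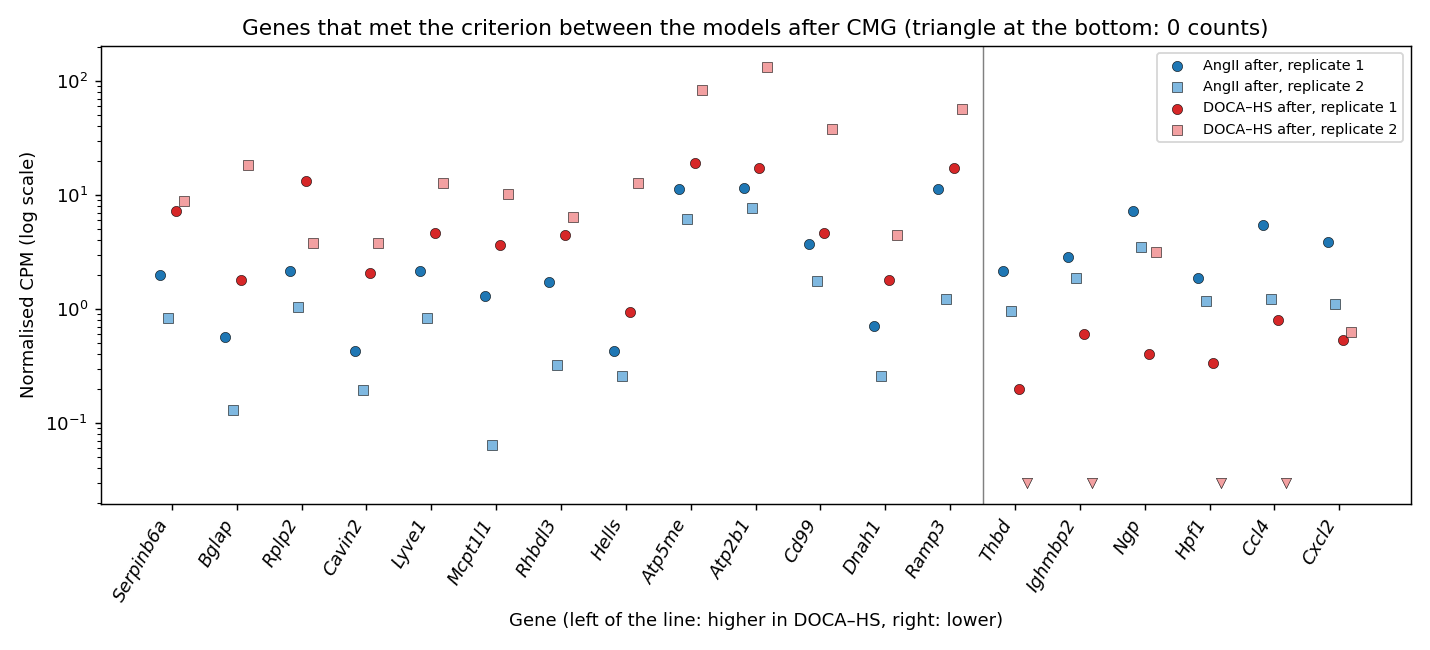
Points give normalised CPM on a log axis in each of the 4 libraries after CMG for 13 genes that were higher (left of the line) and 6 of the 7 genes that were lower (right) in the DOCA–HS model. Triangles mark libraries with 0 counts. AngII replicate 2 (pale blue squares) was the lowest library for the genes on the left, and DOCA–HS replicate 2 (pale red squares) was the highest for 12 of the 13.

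Genes lower in the DOCA–HS model were 7, of which Thbd, Ighmbp2, Ngp, Hpf1, Ccl4 and Cxcl2 are described. Thbd and Hpf1 had a mean under 10 counts and are named after their values were seen. In each of the 7 both DOCA–HS libraries lay below both AngII libraries, and AngII replicate 1 was the highest. DOCA–HS replicate 2 had fewer than 10 counts in all 7 and none in 4 of them, but without that library all 7 stayed beyond -1.5. With each library left out in turn, Thbd, Ighmbp2 and Hpf1 stayed beyond -1.5. With library totals in place of TMM the 7 also kept their direction and size beyond -1.5, with no p-value of at most 0.05.

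Cxcl2 and Ccl4 are chemokines. Cxcl2, a neutrophil attractant, had 27 and 17 counts in the AngII libraries and 8 and 1 in the DOCA–HS libraries, a ratio of AngII to DOCA–HS of 3.60 (95% counting interval 1.74 to 8.40). Ccl4, an attractant of monocytes and lymphocytes, had 38 and 19 counts against 12 and 0. The log2 fold changes were -2.07 ± 0.90 for Cxcl2 and -2.25 ± 0.95 for Ccl4. Both were -0.94 without AngII replicate 1.

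Over the whole list of cytokine and NF-kB genes, 3 of 26 genes tested, Cxcl2 and Ccl4 among them, met the criterion in the lower direction, against 0.0951% of all genes, and 0 met it in the higher direction. In 9 of the 26 both DOCA–HS libraries lay below both AngII libraries, against 16.8% of all genes tested, and in 2 they lay above, against 10% of all genes. Oncostatin M (Osm) stood at 11.2 and 2.91 against 2.34 and 2.54 normalised CPM and did not meet the criterion. Ccl3 stood at 8.33 and 7.84 against 6.16 and 3.81. The transcripts of Il1b, at 38.3 and 50.4 against 37.0 and 57.9, and of Il17ra, at 84.7 and 58.4 against 77.7 and 94.7, overlapped between the models. The median of the list was -0.17, beside -0.06 over all genes.

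Thbd, the endothelial and monocyte thrombin receptor thrombomodulin, had 15 counts in each AngII library and 3 and 0 in the DOCA–HS libraries. The ratio of AngII to DOCA–HS was 7.37 (2.29 to 37.7) and the log2 fold change was -2.99 ± 1.09. Ighmbp2, a helicase, had 20 and 29 counts against 9 and 0, with a log2 fold change of -2.18 ± 0.81. Ngp, a granule protein of maturing neutrophils, had 50 and 54 counts against 6 and 5. In normalised CPM it stood at 7.18 and 3.50 against 0.402 and 3.18, so that DOCA–HS replicate 2 lay just below AngII replicate 2 and the log2 fold change of -2.41 was -0.71 without DOCA–HS replicate 1.

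**Figure D3:**
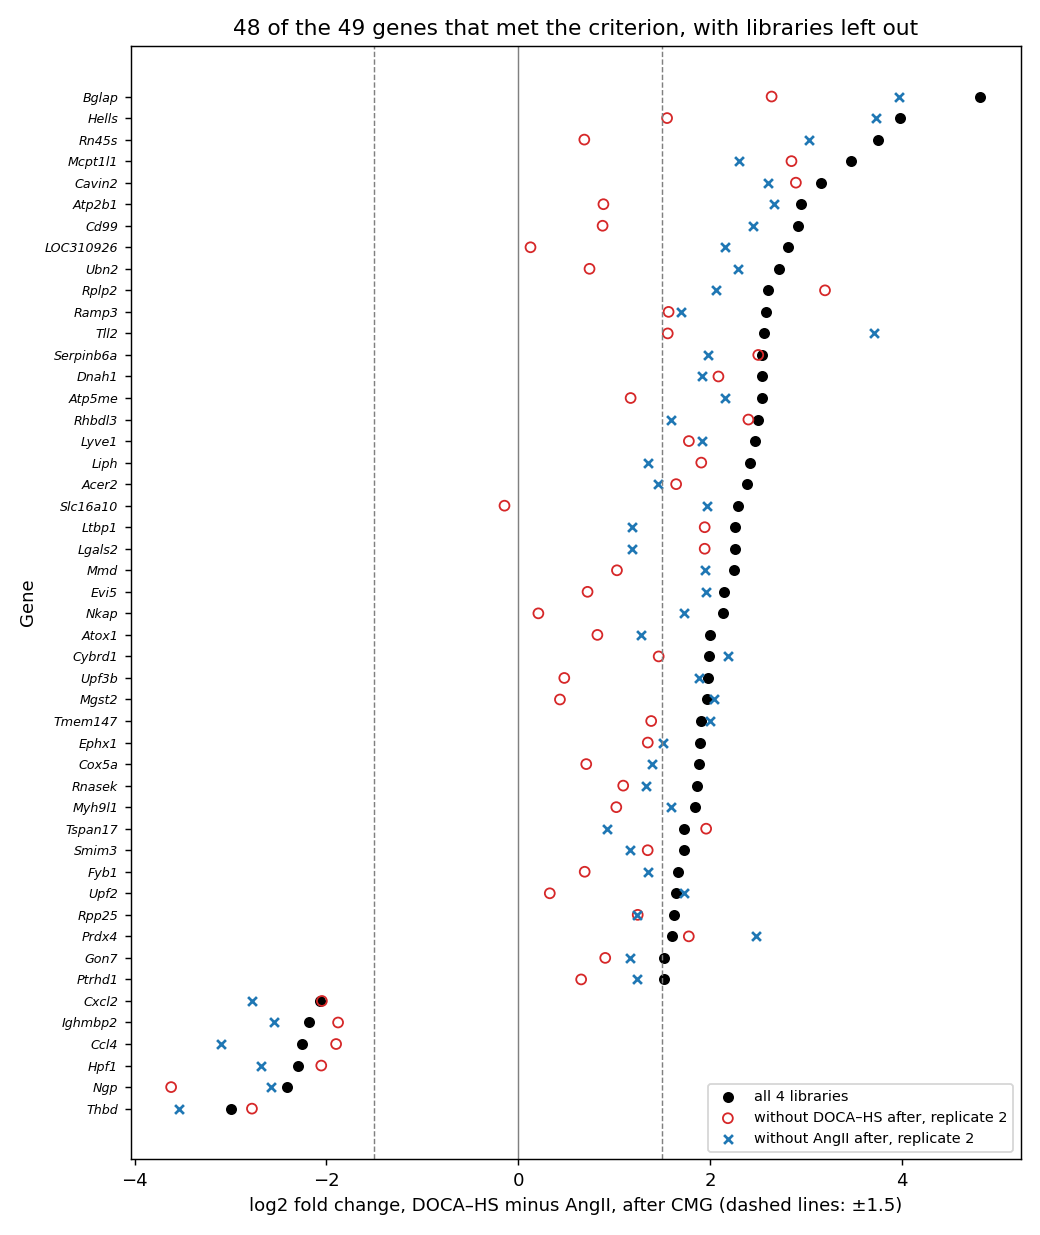
Points give the log2 fold change of DOCA–HS minus AngII for 48 of the 49 genes that met the criterion, with all 4 libraries (black), without DOCA–HS replicate 2 (red circles) and without AngII replicate 2 (blue crosses). Of the 42 higher genes 17 stayed beyond 1.5 without DOCA–HS replicate 2, and all 7 lower genes stayed beyond -1.5.

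Blood cell markers were then compared. Platelet genes had the highest median of the lists with at least 9 genes tested, 1.06 over 13 genes with 12 of them above 0, but 0 of the 13 met the criterion. Pf4, platelet factor 4, stood at 353 and 40.6 normalised CPM in the AngII libraries and at 375 and 642 in the DOCA–HS libraries. Nrgn stood at 316 and 25.98 against 426 and 1099, and Clec1b, the podoplanin receptor of platelets, at 124 and 13.4 against 161 and 314. For these 3 genes AngII replicate 1 lay near DOCA–HS replicate 1, and AngII replicate 2 lay far below all others.

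The summed level of the platelet genes was 1144 and 111 normalised CPM in the AngII libraries and 1366 and 2532 in the DOCA–HS libraries. From DOCA–HS replicate 1 to replicate 2 the genes did not move together: 6 of the 13 were higher in replicate 2 and 7 were lower, with ratios from 0.0678 (Rgs18) to 3.44 (Vwf) and a median of 0.733. Gp1ba, at a ratio of 0.0829, and Itgb3, at 0.0986, subunits of the platelet adhesion receptors, were also far lower in replicate 2. AngII replicate 2 was the lowest library for 12 of the 13 genes, with values 5.46-fold (Vwf) to 40.6-fold (Ppbp) below those of AngII replicate 1. The median of the list was 0.10 without AngII replicate 2, 3.93 without AngII replicate 1 and 1.27 without DOCA–HS replicate 2. Between the first replicates of the models, the ratio of DOCA–HS to AngII lay between 0.611 (Gp9) and 1.43 (Itgb3) for the 13 genes. Other genes with the same profile over the libraries were Ptgs1, the cyclooxygenase of platelets, at 19.96 and 2.01 against 23.0 and 48.3 normalised CPM, and Gpx3 at 13.6 and 1.30 against 24.7 and 19.1. Their values, and those of the 8 genes above that stayed beyond 1.5 with each library left out, were lowest in AngII replicate 2. Before CMG, AngII replicates 1 and 2 stood at 5.76 and 1.14 normalised CPM for Serpinb6a and at 4.96 and 0.762 for Lyve1. The values were 4.87 and 1.52 for Rhbdl3, 3.28 and 0.190 for Mcpt1l1 and 2.13 and 0.190 for Dnah1. They were 1.24 and 0.381 for Hells, 14.5 and 6.47 for Ramp3 and, the other way, 1.42 and 1.52 for Bglap. The part of platelet content in these genes was not tested.

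**Figure D4:**
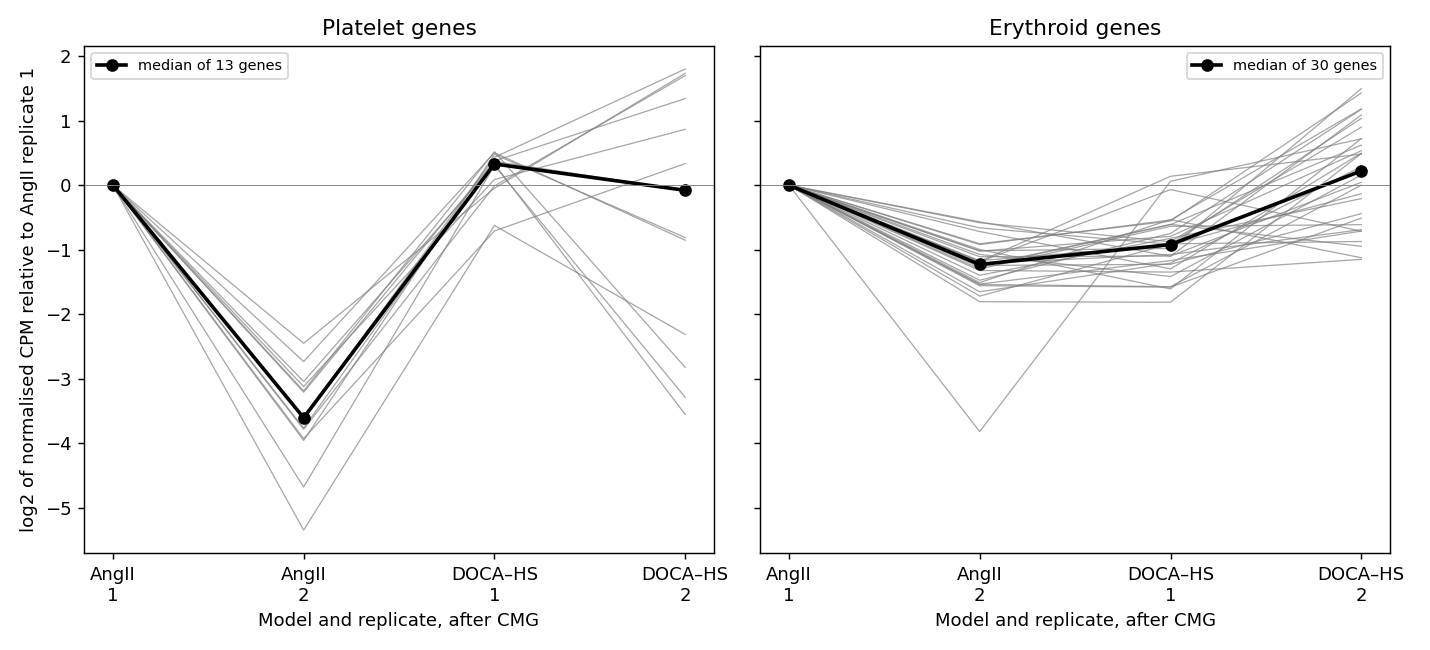
Lines give, for each of 13 platelet genes (left) and 30 erythroid genes (right), the log2 of normalised CPM in the 4 libraries after CMG relative to AngII replicate 1, with the median in black. AngII replicate 2 was the lowest library for 12 of the 13 platelet genes, and the erythroid genes differed as much between replicates as between models.

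Erythroid genes, those of heme synthesis, the red cell membrane and reticulocytes, had a median of 0.17 over 30 genes after CMG, and -0.53 without DOCA–HS replicate 2. With library totals it was -0.38, where the median over all genes was -0.36. Alas2, the first enzyme of erythroid heme synthesis, stood at 14489 and 9678 normalised CPM in the AngII libraries and at 7889 and 27018 in the DOCA–HS libraries. The red cell anion exchanger Slc4a1 stood at 2059 and 1032 against 676 and 3397. DOCA–HS replicate 2 was the highest library for 18 of the 30 genes and AngII replicate 2 the lowest for 20, and 0 of the 30 had a nominal p-value of at most 0.05.

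The neutrophil, lymphocyte and monocyte lists had medians near or below that of all genes, and of their genes only Ngp met the criterion. Of the eosinophil, basophil and mast cell list 2 genes were tested, and Mcpt1l1, described above, was higher. The median was -0.56 over 12 neutrophil genes, -0.54 over 15 B cell genes, -0.40 over 15 cytotoxic lymphocyte genes, -0.33 over 21 T cell genes and -0.06 over 15 monocyte and macrophage genes. Without DOCA–HS replicate 2 the last 4 were -0.24, -0.59, -0.04 and 0.32. Among the B cell genes, Cd79b, a chain of the B cell receptor complex, stood at 19.0 and 32.5 against 24.6 and 20.3 normalised CPM. Ms4a1 (CD20) stood at 10.5 and 11.7 against 8.37 and 1.27, and was one of 4 of the 15 with both DOCA–HS libraries below both AngII libraries, against 16.8% of all genes tested. Lyz2, the lysozyme of monocytes and neutrophils, stood at 362 and 380 against 433 and 312 and overlapped between the models.

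Genes of the respiratory chain and ATP synthase had a median of 0.74 over 70 genes tested, with 60 above 0. Of the 70, 2 met the criterion in the higher direction, against 0.57% of all genes, and 0 in the lower direction. Atp5me, subunit e of ATP synthase, stood at 11.3 and 6.15 normalised CPM in the AngII libraries and at 18.9 and 83.9 in the DOCA–HS libraries, with a log2 fold change of 2.54 ± 0.81. Cox5a, a subunit of cytochrome c oxidase, stood at 15.2 and 6.61 against 17.1 and 64.9, with a log2 fold change of 1.89 ± 0.78. Both were highest in DOCA–HS replicate 2, and without it their log2 fold changes were 1.17 and 0.71.

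DOCA–HS replicate 2 was the highest library for 60 of the 70 respiratory chain genes and for 70 of the 75 ribosomal protein genes. Without it the median of the respiratory chain genes was -0.11, and that of the ribosomal protein genes went from 0.59 to -0.15. The proteasome genes went from 0.39 to 0.00. With library totals the medians of the 3 lists were -0.02, -0.17 and -0.18, where that of all genes was -0.36. In 11 of the 70 respiratory chain genes the models did not overlap in the higher direction, against 10% of all genes, among them Ndufs4 at 2.73 and 1.94 against 3.82 and 5.09 normalised CPM.

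**Figure D5:**
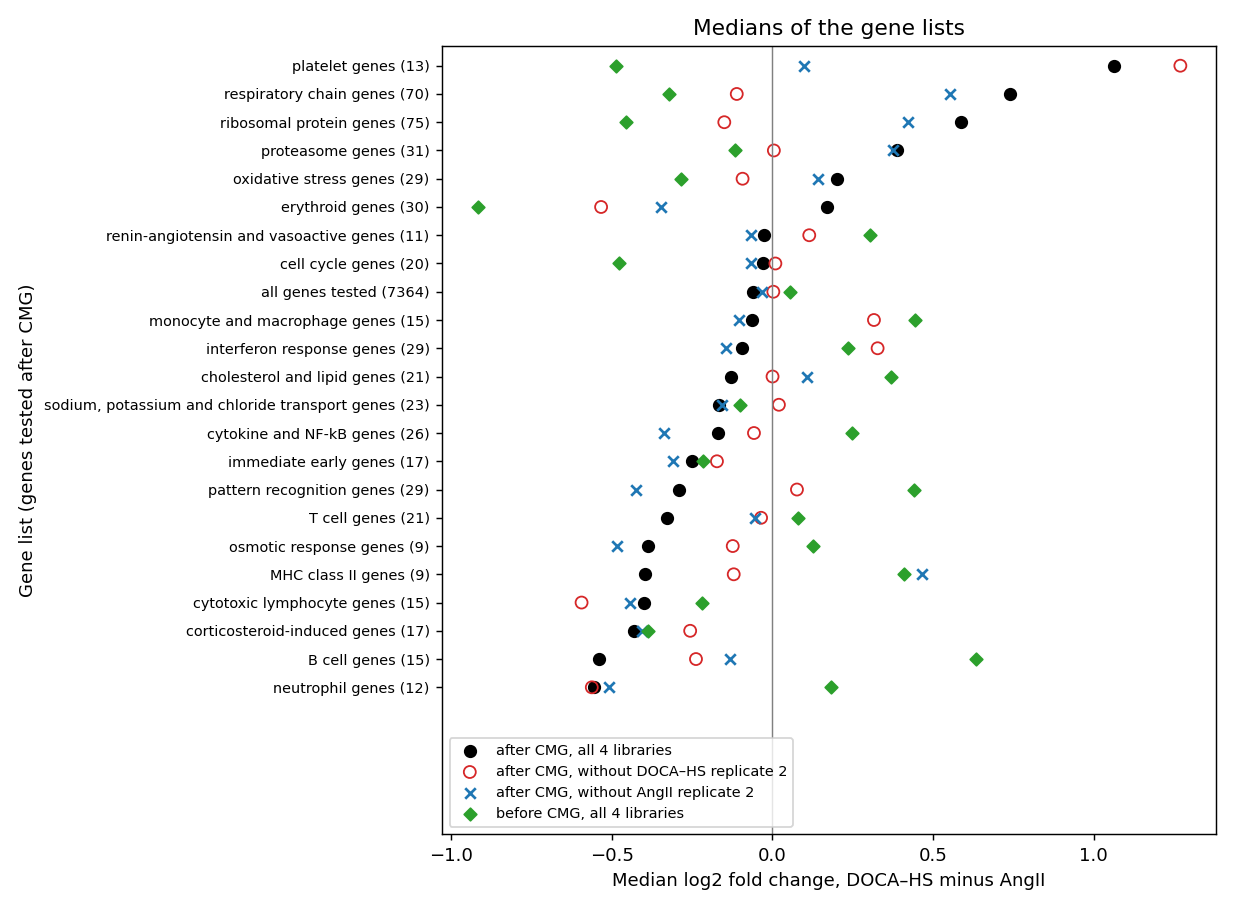
Points give the median log2 fold change of DOCA–HS minus AngII of each gene list after CMG with all 4 libraries (black), without DOCA–HS replicate 2 (red circles) and without AngII replicate 2 (blue crosses), and before CMG (green diamonds), with the number of genes tested after CMG in brackets. The platelet genes moved from 1.06 to 0.10 without AngII replicate 2, and the respiratory chain genes from 0.74 to -0.11 without DOCA–HS replicate 2.

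Genes that corticosteroids induce through the glucocorticoid or mineralocorticoid receptor were examined because DOCA is a corticosteroid. Of 17 tested after CMG, 0 met the criterion, and the median was -0.43 with all libraries and -0.26 without DOCA–HS replicate 2. That library was the lowest for 11 of the 17, and for 48.2% of all genes tested. In 7 of the 17 both DOCA–HS libraries lay below both AngII libraries, against 16.8% of all genes tested, and in 0 above. The 7 were Per1, Dusp1, Ddit4, Cebpd, Txnip, Cxcr4 and Slc38a2. The clock gene Per1 stood at 10.2 and 6.54 against 4.75 and 1.27 normalised CPM, and Ddit4, an inhibitor of mTOR signaling, at 11.1 and 12.8 against 6.83 and 4.45. The classic targets Sgk1, at 2.87 and 3.76 against 2.48 and 5.09, and Tsc22d3, at 35.6 and 46.1 against 33.4 and 52.1, overlapped between the models. Before CMG the median of the list was already -0.39 over 16 genes. At that time 6 of them had a nominal p-value of at most 0.05 in edgeR's test in the lower direction, against 10.3% of all genes. In the higher direction 2 did, against 4.16%.

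Few genes of the pathways that the models engage were measurable in blood. Of 36 renin-angiotensin and vasoactive genes 11 could be tested and 0 met the criterion. The glucocorticoid receptor Nr3c1 stood at 8.18 and 11.7 against 10.5 and 3.18 normalised CPM, and the (pro)renin receptor Atp6ap2 at 3.88 and 3.56 against 4.75 and 1.27. Of 23 genes tested from the list of sodium, potassium and chloride transport genes, only Atp2b1 met the criterion, beside 0.57% of all genes in the higher direction. Atp2b1 is a calcium pump, and its log2 fold change was 0.89 without DOCA–HS replicate 2. The cotransporter Slc12a2 stood at 3.59 and 4.60 against 4.95 and 2.54, and the models overlapped. Of 9 osmotic response genes 0 met the criterion, with the tonicity factor Nfat5 at 8.33 and 9.004 against 7.30 and 4.45.

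The study names Gzma, Rhob, Jun, Txnip, Egr1 and Fosb for blood, where it compared each model after CMG with the same model before it. Txn1 and Vegfa were examined there in kidney and aorta, as were Txnip, Egr1 and Rhob. Between the models after CMG, which is a different comparison, 0 of these genes met the criterion. Txnip, the inhibitor of thioredoxin, stood at 78.1 and 78.7 normalised CPM in the AngII libraries and at 50.4 and 35.6 in the DOCA–HS libraries. The AngII values were alike and both DOCA–HS values lay below them, with a log2 fold change of -0.86 ± 0.63. The subunit Jun of AP-1 stood at 12.3 and 6.67 against 6.16 and 3.81, with a log2 fold change of -0.84 ± 0.58, and granzyme A (Gzma) at 7.75 and 7.25 against 4.35 and 6.36, with -0.55 ± 0.53. For these 3 genes both DOCA–HS libraries lay below both AngII libraries, as they did for 16.8% of all genes tested. Thioredoxin (Txn1), at 47.2 and 28.5 against 34.4 and 71.2, Rhob, at 10.3 and 10.8 against 11.6 and 4.45, and Egr1, at 1.29 and 1.62 against 1.54 and 1.27, overlapped. Fosb and Vegfa had too few counts to be tested.

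Before CMG, at week 1 of the AngII model and week 3 of the DOCA–HS model, the same comparison was made on the other 4 libraries. There 1081 of 7470 genes (14.5%) reached a nominal p-value of 0.05, 311 of them (4.16%) higher and 770 (10.3%) lower in DOCA–HS blood. The lowest adjusted p-value in edgeR was 0.106, and 0 genes were under 0.05. DESeq2 called 241 genes at an adjusted p-value under 0.05. The criterion of the study was met by 59 genes (0.79%), 32 (0.428%) in the higher and 27 (0.361%) in the lower direction, and with library totals by 558 and 4.

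Of the 42 genes that were higher in the DOCA–HS model after CMG, 40 could be tested before it. Of these 0 met the criterion in the same direction, against 0.428% of all genes, 9 had a log2 fold change above 0, and 7 had a nominal p-value of at most 0.05 in the opposite direction, against 10.3% of all genes. Rplp2 had a log2 fold change of -3.57 before CMG and 2.61 after. Before CMG it stood at 2.04 and 27.2 normalised CPM in the AngII libraries and at 0.882 and 1.55 in the DOCA–HS libraries, and without AngII replicate 2 the log2 fold change before CMG was -0.82. Atp5me had a log2 fold change of -0.90 before CMG and 2.54 after. Conversely, of 27 genes that met the criterion in the higher direction before CMG and could be tested after it, 12 kept the sign and 0 met the criterion. Over all genes tested after CMG, 3334 of 7364 lay above 0 and 0.57% met the criterion in the higher direction.

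Among the lower genes, Cxcl2 and Thbd met the criterion at both times. Cxcl2 had a log2 fold change of -3.43 before CMG and -2.07 after it, and Thbd -1.64 and -2.99. Ccl4 stood at -1.02 before CMG. No library is shared between the times, but the rats may be the same, as the labels do not say which rat a library came from. Of 24 genes that met the criterion in the lower direction before CMG and could be tested after it, 15 kept the sign and Cxcl2 and Thbd met the criterion. Over all genes tested after CMG, 3334 of 7364 lay above 0, so most did not, and 0.0951% met the criterion in the lower direction.

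The change of the difference between the models was tested over all 8 libraries. A nominal p-value of at most 0.05 was reached by 299 of 7994 genes (3.74%), by 202 upwards (2.53%) and 97 downwards (1.21%). In edgeR 0 genes had an adjusted p-value under 0.05, the lowest being 0.881, and DESeq2 called 1. The criterion was met by 253 genes (3.16%), by 180 (2.25%) whose difference moved upwards and by 73 (0.913%) whose difference moved downwards, the DOCA–HS model becoming higher or lower relative to the AngII model. With library totals these were 2 and 30. By the rule on smallest p-values the former were led by Rplp2 (6.29 on the log2 scale), Atp5me (3.43), RGD1566099 (2.42), Uhmk1 (2.40) and Cdc42bpa (3.18). The latter were led by B3gnt5 (-1.90), Cnih4 (-2.49), LOC499331 (-2.18), Tfap4 (-2.70) and Sh2b2 (-2.19). The adjusted p-value of all 10 was 0.881. The change of Rplp2 was 3.51 without AngII replicate 2 before CMG, and that of Atp5me was 2.08 without DOCA–HS replicate 2 after CMG.

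Among the lists with at least 9 genes tested, the platelet genes had the largest median change, 1.59 over 13 genes, with 0 of 13 at a nominal p-value of at most 0.05. It was 0.64 without AngII replicate 2 after CMG, a library low in platelet genes. Before CMG AngII replicate 2 was also low in them. Scaled over all 8 libraries, their summed level before CMG was 1440 and 384 normalised CPM in the AngII libraries and 513 and 814 in the DOCA–HS libraries. The median before CMG was -0.49, 1.04 without AngII replicate 1 and -1.22 without AngII replicate 2. The erythroid genes followed. Before CMG, 26 of 30 erythroid genes had a nominal p-value of at most 0.05 in the lower direction, against 10.3% of all genes, with a median of -0.92. After CMG 0 of 30 did, against only 0.122% of all genes, so the 2 counts cannot be compared directly. The median after CMG was 0.17, and -0.53 without DOCA–HS replicate 2. Ahsp, the chaperone of alpha hemoglobin, had a log2 fold change of -1.08 before CMG and 0.63 after it. The change itself had a median of 1.16 over the list, beside -0.10 over all genes, and only Alad (2.20) and Uros (1.47), enzymes of heme synthesis, had a nominal p-value of at most 0.05 for it. Without DOCA–HS replicate 2 after CMG the median change was 0.49.

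Respiratory chain and ribosomal protein genes also had lower medians in the DOCA–HS model before CMG, and not after it with all 4 libraries, with TMM scaling. Without DOCA–HS replicate 2 their medians after CMG were -0.11 and -0.15, beside 0.003 over all genes. Before CMG 26 of 71 respiratory chain genes and 26 of 76 ribosomal protein genes had a nominal p-value of at most 0.05 in the lower direction, against 10.3% of all genes, and 0 in the higher direction. The medians before CMG were -0.32 and -0.46 with TMM and turned to 0.46 and 0.32 with library totals, where that of all genes was 0.84. The median changes were 0.99 and 1.01, and 0.33 and 0.31 without DOCA–HS replicate 2 after CMG. For the change over all 8 libraries, 12 of 72 respiratory chain genes met the criterion upwards, beside 2.25% of all genes, and 1 downwards, beside 0.913%. These counts include DOCA–HS replicate 2 after CMG, the highest library for 60 of the 70 respiratory chain genes tested after CMG. Without DOCA–HS replicate 2 after CMG the median change over all genes was -0.04.

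B cell genes had medians of the opposite sign. Before CMG 6 of 15 had a nominal p-value of at most 0.05 in the higher direction, against 4.16% of all genes, with a median of 0.63, and after CMG the median was -0.54. The median change was -1.06, and -0.72 without DOCA–HS replicate 2 after CMG. For Ms4a1 the log2 fold change was 0.88 before CMG and -0.99 after it, with a change of -1.78. It was the only B cell gene that reached a nominal p-value of 0.05 for the change. With library totals the median of all genes shifted by -0.30 after CMG, by 0.79 before it and by -1.09 for the change. Relative to all genes, the median change was then 0.96 for the erythroid genes, 0.80 for the respiratory chain genes, 0.69 for the ribosomal protein genes and -0.95 for the B cell genes, beside 1.26, 1.10, 1.11 and -0.96 with TMM.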

How the data were processed

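Whole blood RNA of 8 libraries was sequenced by the authors, mapped by HISAT2 (rn6 build) and counted on genes by strand with HTSeq. They deposited raw counts per gene, without normalization. The hemoglobin annotations were stated to be removed, but Hbb and LOC100134871 are among the counts. DESeq2 was used by the authors. Here, edgeR 4.0.16 (R 4.3.3) was used on the 4 libraries of each comparison (filterByExpr, TMM, glmQLFit, glmQLFTest), and on all 8 for the change, with Benjamini-Hochberg adjustment over all genes tested. Of 17446 genes, 6280 had no count in the 4 libraries after CMG. The SE is that of the fitted log2 fold change. The replicates differed by more than counting error (chi-square per degree of freedom 21.3 for AngII and 84.8 for DOCA–HS), and as the labels do not state separate animals, p-values measure the spread between these libraries, which may be technical. The comparison and the 28 gene lists were chosen with earlier results of these data known. Genes were named by a rule: after CMG, those meeting the criterion with a mean count of 10 or more and no overlap between the models, up to 12 with the smallest p-value per direction, up to 8 that stayed beyond 1.5 without each library, up to 8 that also met the criterion before CMG, 5 per direction for the change, the genes named by the study, and called or abundant list members. A few genes are not reported here, though they stay in the fits and counts. Further list members are named with their values already seen. The scripts were tested on simulated data. Alternatives were DESeq2 1.42.0, limma-voom (limma 3.58.1), other scalings, filters and thresholds, a replicate block, and each library left out. No genome of the build was used, so coordinates are not given.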

Additional observations from a re-analysis of the deposited data

How the results depend on the processing

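After CMG, the count of genes higher (42) and lower (7) in the DOCA–HS model and at an adjusted p-value under 0.05 (0) depended on the processing. With library totals 2 genes were higher, and with totals outside hemoglobin 0 were lower. With at least 10 counts in every library 28 were higher, 1 was lower and 1 passed the adjusted threshold among 2639 genes. Without a filter 143 were higher, 32 lower and 9 passed it. DESeq2 gave 101 higher and 2 lower, and limma-voom 97 higher. All 8 libraries in 1 fit gave 87 higher and 25 lower, and 41 and 30 without DOCA–HS replicate 2. With a library left out, the count of higher genes ranged from 16 to 451, that of lower genes from 2 to 987 and that at an adjusted p-value under 0.05 from 1 to 196, the largest counts being those without DOCA–HS replicate 1, where DOCA–HS replicate 2 stood alone and was assumed to vary like the AngII libraries. The cause of these differences was not tested. Replicates with the same number did not deviate together (correlation of deviations -0.196 after and 0.037 before CMG), and a replicate block gave 60 genes higher and 6 lower after CMG. A crossed block, chosen after seeing the data, gave 108 higher and 2 lower. Before CMG (32 higher, 27 lower, 0 adjusted), library totals gave 558, 4 and 5, no filter 81, 72 and 314, DESeq2 17, 30 and 241, and a threshold of 1 in place of 1.5 gave 155 higher and 242 lower. The block gave 1 gene at an adjusted p-value under 0.05, and with a library left out the counts were 42 to 171, 52 to 127 and 2 to 176. For the change (180 upwards, 73 downwards, 0 adjusted), library totals gave 2 and 30, DESeq2 288, 24 and 1, the block 162 and 72, and with a library left out the counts were 46 to 731, 26 to 1191 and 0 to 146. The depth of DOCA–HS replicate 2 limits what can be seen of genes under about 3 counts in it, which were worth 1.91 normalised CPM.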

Other observations

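Interferon response genes had a median log2 fold change of -0.09 over 29 genes tested after CMG, and 0 met the criterion. Their most abundant members differed between the AngII libraries. Irf7, a regulator of type I interferon, stood at 935 and 194 normalised CPM in the AngII libraries and at 381 and 437 in the DOCA–HS libraries, and Ifit1 at 540 and 82.0 against 180 and 78.8. Gbp2, a guanylate-binding protein induced by interferon gamma, was one of 3 genes of the list with both DOCA–HS libraries above both AngII libraries, against 10% of all genes, and stood at 13.1 and 9.72 against 31.8 and 15.3. MHC class II genes were highest in AngII replicate 2 in all 9 genes tested, with the invariant chain Cd74 at 166 and 349 against 225 and 252.

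Among abundant members of the blood cell lists, single genes stood far apart between the DOCA–HS replicates. Cd4, the T helper and monocyte coreceptor, had 215 and 374 counts in the AngII libraries, 438 in DOCA–HS replicate 1 and 0 in DOCA–HS replicate 2. The neutrophil gene S100a8 stood at 30.4 and 27.1 normalised CPM in the AngII libraries, at 20.2 in DOCA–HS replicate 1 and at 151 in DOCA–HS replicate 2.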
